A study of Mus musculus with 30 samples.

Results

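Forelimb buds treated with Wnt-C59 (C59) were compared 1 h and 6 h after the injection, to follow the onset of the response to the block of WNT secretion. The 6 C59 libraries of these times, 3 at 1 h and 3 at 6 h, were selected by their labels from the 30 libraries of the time course. C59 is a small molecule that blocks porcupine, the enzyme which attaches a lipid to WNT proteins before their secretion. Pregnant wild-type Swiss Albino mice received a single intraperitoneal injection of C59, or of the solvent DMSO as control, at embryonic stage E10.5. Per the methods, the C59 solution also held methylcellulose and a detergent, which the DMSO control in buffered saline did not. The part of this difference in the results was not tested. PolyA RNA of the forelimb buds was sequenced, per the methods from 1 pair of limb buds for each replicate. All groups are wild type and carry no transgene. The injection reached the embryo through its mother, and the methods state that the replicates of a condition came from several litters but not which litter each library belongs to. The 6 DMSO libraries of the same times served to measure the change that limb buds undergo over the same hours without the drug.

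Canonical WNT signaling stabilizes β-catenin, which together with TCF/LEF factors activates transcription of target genes, among them inhibitors that feed back on the pathway. In the limb bud, WNT ligands from the ectoderm keep the underlying mesenchyme proliferative and undifferentiated and maintain the apical ectodermal ridge. The ridge in turn produces fibroblast growth factors (FGFs), while SHH from the posterior mesenchyme and the BMP antagonist GREM1 connect ridge and mesenchyme in a feedback loop. Cartilage forms in the core of the bud from cells that express *Sox9*, and muscle precursors migrate in from the somites.

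The C59 libraries held between 20579078 and 24719008 counts on autosomal genes, and the range over the 12 libraries was 18188636 to 30506759. Levels are given as CPM, that is counts scaled to the depth of each library with TMM factors over these 12 libraries. Changes are log2 fold changes ± SE between 6 h and 1 h. A gene was called when its Benjamini-Hochberg (BH) adjusted p in edgeR's quasi-likelihood test was under 0.05 and its log2 fold change lay beyond 1. No library was a copy of another: within groups, pairs of libraries had a chi-square over its degrees of freedom between 3.46 and 10.4, where sampling noise alone gives about 1. Sex-linked transcripts differed between libraries. The summed FPKM (fragments scaled by transcript length and depth) of 4 Y-linked genes was 37.0, 38.2 and 21.2 at 1 h and 20.3, 19.8 and 33.2 at 6 h in C59, against 7.66, 9.03 and 0.0469 at 1 h and 0 in the 3 libraries at 6 h in DMSO. *Xist*, which female cells express, stood beside it at 23.7 FPKM in C59 1 h replicate 3 and at 29.5, 24.8 and 11.4 FPKM at C59 6 h, and at 46.8 and 40.5 FPKM in DMSO 1 h replicates 1 and 2, so that 4 C59 and 2 DMSO libraries held transcripts of both sexes although the methods describe 1 pair of limb buds a replicate. Genes of chromosomes X, Y and M are not in the tests, and with the Y-linked level as a covariate 468 genes were called in C59, 400 of them shared with the 493 given here. The comparison of the change in C59 with that in DMSO was not fitted with this covariate. Among the 12 libraries each of C59 lay above each of DMSO in Y-linked level, and the part of sex in that comparison was not tested. DMSO replicate 1 stood apart at both times, with 3.96% to 4.29% of its counts in its 10 highest genes against 5.55% to 5.94% in the other 10 libraries.

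Between 1 h and 6 h, 493 of 13106 protein-coding genes (3.76%) were called in C59, 316 higher (2.41%) and 177 lower (1.35%). At any fold the test passed for 3101 genes with higher (23.7%) and 3211 with lower expression (24.5%), 48.2% of all genes together, and the median change of all genes was -0.0031. In DMSO limb buds 92 of 13107 genes (0.702%) were called over the same hours, 76 higher (0.58%) and 16 lower (0.122%). At any fold 743 genes (5.67%) passed. The count of 92 was 58 without DMSO 1 h replicate 1 and 56 without DMSO 1 h replicate 2 or without DMSO 6 h replicate 3. The replicates of C59 varied less (biological coefficient of variation 4.30%) than those of DMSO (6.46%). Of all calls, 50 were shared, which is 10.1% of the C59 calls and 54.3% of the DMSO calls, and 45 of the 50 had the same direction. The genes called higher in C59 had a median log2 fold change of 1.32 in C59 and 0.59 in DMSO, and the genes called lower had medians of -1.31 and -0.21. These genes were picked by their fold in C59, so medians beyond 1 there were fixed by the rule. The smaller medians in DMSO follow at least in part from this choice. A test of the difference between the steps on 12 libraries called 179 of 13397 genes (1.34%), with 68 steps more positive (0.508%) and 111 more negative (0.829%) in C59.

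**Figure D1:**
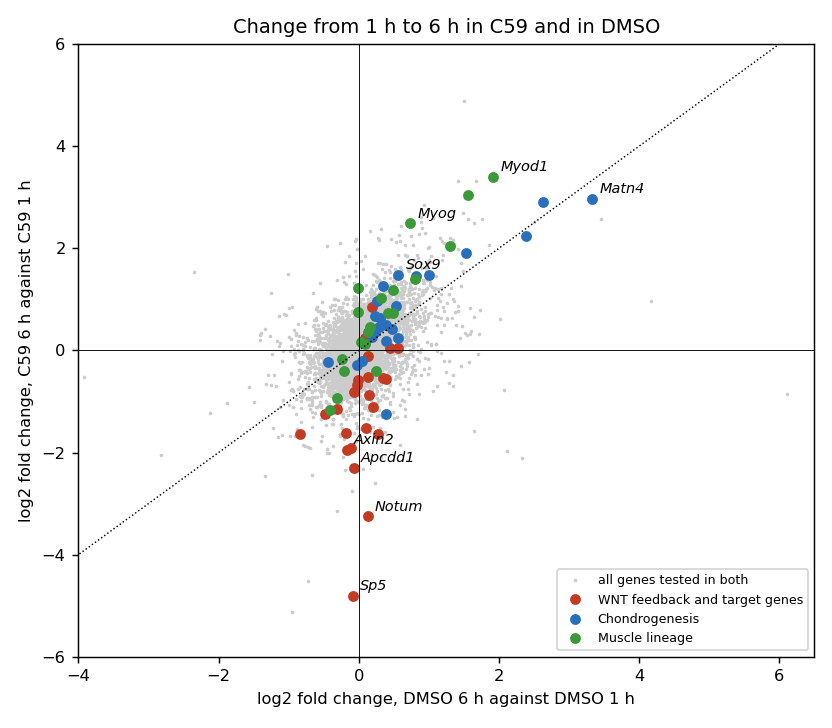
Each grey point is a gene tested in both treatments, placed by its log2 fold change from 1 h to 6 h in DMSO (horizontal axis) and in C59 (vertical axis), and colored points are members of 3 gene lists; the dotted line marks equal change and *Nr1h5* is left out. WNT feedback and target genes such as *Axin2* (-0.17 in DMSO, -1.94 in C59) and *Sp5* (-0.09, -4.80) lie below the line near 0 on the DMSO axis, while *Matn4* (3.33, 2.97) moved in both treatments.

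Expression of most WNT feedback and target genes fell within these hours, 20 of 25 at any fold and 12 beyond the fold threshold (all genes 24.5% and 1.35%). *Axin2* (ENSMUSG00000000142, chromosome 11, 108920349 to 108950783, mm10), which encodes a scaffold of the β-catenin destruction complex and is a standard readout of the pathway, stood at 107, 107 and 101 CPM in the 3 C59 libraries at 1 h and at 28, 28.3 and 25.7 CPM at 6 h. All libraries of 6 h lay far below those of 1 h, and the log2 fold change was -1.94 ± 0.05 (edgeR, BH-adjusted p 7.14e-16). In DMSO *Axin2* was at 122, 120.3 and 118 CPM at 1 h and at 105, 114 and 101 CPM at 6 h, a change of -0.17 ± 0.05 that did not pass (BH-adjusted p 0.0938). The steps differed by -1.77 ± 0.08 (edgeR interaction contrast, BH-adjusted p 9.13e-12).

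*Sp5* (chromosome 2, 70474923 to 70477729) encodes a zinc finger factor induced by WNT signaling and fell most in this group, from 6.69, 6.87 and 7.79 CPM to 0.251, 0.142 and 0.35 CPM. Its log2 fold change was -4.80 ± 0.27 (edgeR, BH-adjusted p 4.66e-11) and the groups were far apart, whereas the DMSO libraries ranged from 5.85 to 6.31 CPM at 1 h and from 5.17 to 6.64 CPM at 6 h, with overlap. The bases upstream of the start sites of *Sp5* and *Axin2* are shown because both are widely used readouts of the pathway and *Sp5* holds a TCF/LEF core motif there. The letters CTTTGAT were searched on both strands (reverse complement ATCAAAG) in windows of 300 bases, 250 before and 50 after the start site, and are set in capitals. The sequences are from RefSeq (GRCm38.p6), both on the plus strand and 250 bases long, Sp5 at chr2:70474673-70474922 and Axin2 at chr11:108920099-108920348.
Sp5: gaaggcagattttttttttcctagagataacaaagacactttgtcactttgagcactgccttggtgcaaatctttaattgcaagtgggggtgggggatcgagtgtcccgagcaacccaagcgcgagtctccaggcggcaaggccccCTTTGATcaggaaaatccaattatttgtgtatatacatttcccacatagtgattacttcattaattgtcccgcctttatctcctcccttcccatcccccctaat
Axin2: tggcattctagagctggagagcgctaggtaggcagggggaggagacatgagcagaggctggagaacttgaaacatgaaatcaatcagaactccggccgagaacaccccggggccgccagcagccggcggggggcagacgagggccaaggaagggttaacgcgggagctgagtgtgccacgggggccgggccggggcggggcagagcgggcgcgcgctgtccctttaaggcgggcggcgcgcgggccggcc
The motif of *Sp5* begins 104 bases before the start site, and the *Axin2* window holds none. Of the 12 genes of this group that were called lower, 8 had a promoter in the table and 1 of the 8, *Sp5*, held these letters, against 3.73% of 32851 mouse promoters. A match is a description of the letters, and binding of a factor was not measured in these libraries.

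Inhibitors and a receptor of the pathway fell as well. *Notum*, a carboxylesterase that removes the lipid from WNT proteins, had 6.48, 5.72 and 5.91 CPM at 1 h and 0.626, 0.997 and 0.306 CPM at 6 h in C59. *Apcdd1*, a membrane inhibitor of WNT signaling, went from 77.3, 83 and 80.4 CPM to 16.8, 16.3 and 15.9 CPM, and the receptor gene *Fzd10* from 94.6, 95.2 and 96.5 CPM to 26.4, 25 and 25.2 CPM. In each case the 6 h libraries lay below all 1 h libraries. The log2 fold changes were -3.24 ± 0.27 for *Notum*, -2.30 ± 0.06 for *Apcdd1* and -1.91 ± 0.05 for *Fzd10* (edgeR, BH-adjusted p 9.72e-09, 4.47e-16 and 6.01e-16). The same genes changed by 0.13 ± 0.13, -0.07 ± 0.05 and -0.11 ± 0.05 in DMSO, and the difference between the steps passed for each (-3.37 ± 0.29, -2.23 ± 0.07 and -1.79 ± 0.07).

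Of 25 tested genes of the WNT feedback and target list, 12 were called lower and 0 higher in C59, and the list's median was -0.88, against -0.0031 for all genes and 1.35% of all genes called lower. In DMSO 0 of 25 were called and the median was 0.10. 16 of the 26 listed genes are also in the panels which the study chose on these libraries, so their direction is not independent evidence. The dishevelled-binding inhibitor gene *Nkd2* fell by 1.63 on the log2 scale in C59 and rose by 0.27 ± 0.05 in DMSO, below the fold threshold (edgeR, BH-adjusted p 2.23e-13 and 0.00693). *Mycn*, a growth-promoting transcription factor, fell from 151, 153 and 157 CPM to 45.9, 52.1 and 52.3 CPM, and *Tcf7*, a TCF/LEF factor, from 68, 65.6 and 68.5 CPM to 30.2, 29.5 and 31.7 CPM, again without overlap. For *Tcf7* the DMSO libraries also fell (-0.30 ± 0.06, edgeR, BH-adjusted p 0.0156), and the steps differed by -0.84 ± 0.08, under the fold threshold.

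The remaining 4 calls of this list were the R-spondin receptor gene *Lgr6* (-1.53 ± 0.26) and the transcription factor genes *Cdx1* (-1.64 ± 0.36), *Vax2* (-1.24 ± 0.30) and *T* (-1.11 ± 0.36), all below 5 CPM. The call of *T* was lost without C59 1 h replicate 1 or C59 6 h replicate 2, and that of *Vax2* without C59 6 h replicate 3. For *Cdx1* and *Vax2* the steps in C59 and DMSO did not differ by the test (BH-adjusted p 0.353 and 0.209, edgeR). Other members passed the test with smaller changes, among them the inhibitor gene *Nkd1* (-0.88 ± 0.05), *Lef1* (-0.81 ± 0.08), whose protein binds β-catenin, and *Myc* (-0.52 ± 0.07). In all, 20 of the 25 genes were lower and 3 higher at any fold. *Tcf7l2*, another TCF/LEF factor, rose most in the list, from 55.7, 60.6 and 57.4 CPM to 111, 98.7 and 104 CPM (0.85 ± 0.05).

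**Figure D2:**
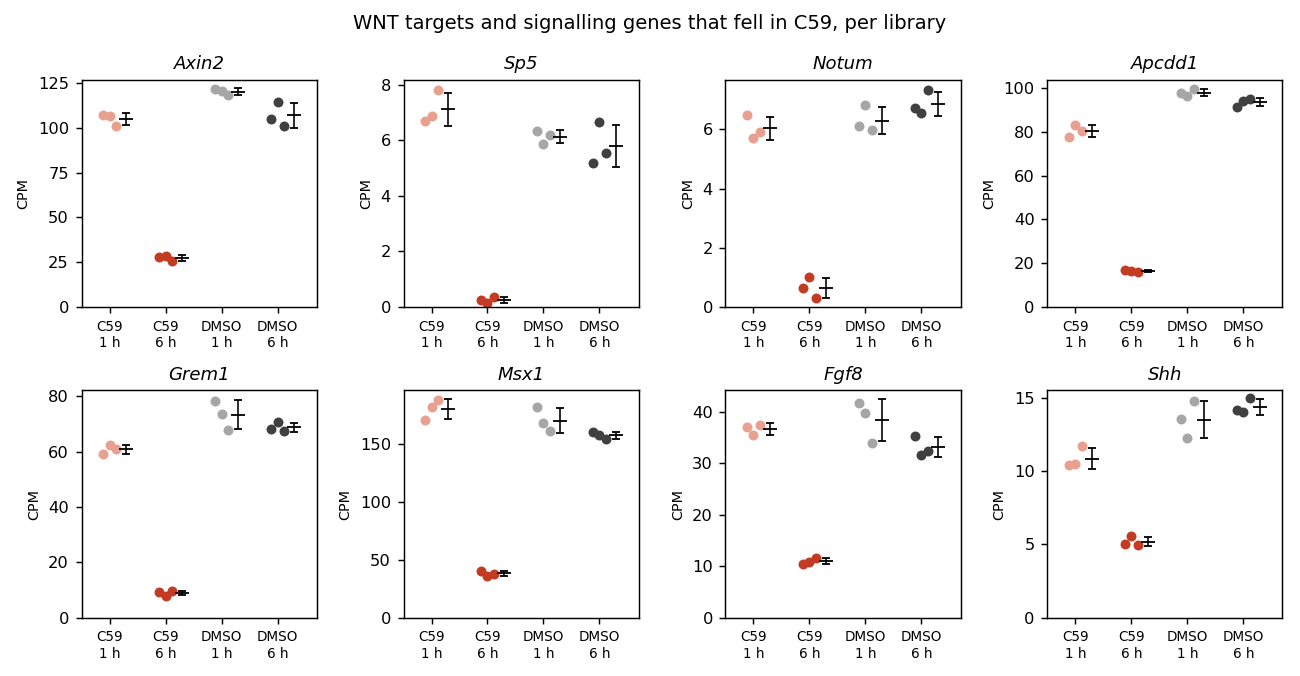
Points give CPM (linear axis from 0) of each library in the 4 groups, and the black mark beside them the mean with an error bar of 1 SD (n = 3). In all 8 genes the C59 6 h libraries lie below every other library, for *Axin2* between 25.7 and 28.3 CPM against 101 to 122 CPM elsewhere.

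Among the WNT ligand genes, 1 of 16 tested was called lower and 2 higher in C59 (all genes 1.35% and 2.41%). The count of lower calls was 2 without C59 1 h replicate 1 and 3 without C59 6 h replicate 3. *Wnt2* fell from 8.65, 4.48 and 4.33 CPM to 1.38, 1.28 and 1.49 CPM (-2.08 ± 0.27, edgeR, BH-adjusted p 2.38e-06), with all 6 h libraries below those of 1 h. All C59 libraries of 1 h lay above those of DMSO, which had 0.951, 1.24 and 3.03 CPM at 1 h and 2.54, 1.88 and 2.29 CPM at 6 h. *Wnt7b*, made in the ectoderm, rose by 1.08 ± 0.08, and *Wnt9a* by 1.20 ± 0.18, while *Wnt5a*, the ligand of outgrowth in the distal bud, rose less (0.57 ± 0.04). The summed level of the 20 listed ligand genes was 486 to 519 CPM at 1 h and 607 to 617 CPM at 6 h in C59. In DMSO it rose alike, from 501 to 523 CPM to 606 to 616 CPM. The list's median was -0.03 in C59 and 0.32 in DMSO, where 0 of 18 tested were called. Of 18 steps 0 were called more positive and 3 more negative in C59. Of 15 receptor and coreceptor genes, *Fzd8* (1.156 ± 0.07) and *Fzd9* (1.11 ± 0.32) were called higher and 0 lower (all genes 2.41% and 1.35%), with *Fzd6* at the lower end (-0.35 ± 0.09). The call of *Fzd9* was lost without C59 1 h replicate 3, and its value in DMSO, which did not pass the test, was 1.17 ± 0.39 (edgeR, BH-adjusted p 0.104).

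Secreted modulators of the pathway moved in both directions, with 3 of 19 called lower and 1 higher (all genes 1.35% and 2.41%). In DMSO 0 of 19 were called lower and 1 higher. Of 19 steps 3 were called more negative and 0 more positive in C59. The study's panels hold 9 of the 21 listed genes. *Sost*, an antagonist that binds WNT coreceptors, went from 21.6, 22 and 20.2 CPM to 4.39, 5.41 and 6.03 CPM, and the antagonist gene *Dkk2* from 11.4, 10.2 and 12.7 CPM to 4.01, 4.84 and 5.46 CPM. In both genes the 6 h libraries lay below those of 1 h (-2.02 ± 0.11 and -1.26 ± 0.14; edgeR, BH-adjusted p 4.27e-11 and 4.58e-07). The R-spondins, which strengthen WNT signaling, split: *Rspo4* fell (-1.49 ± 0.09) and *Rspo3* rose from 10.48, 11.7 and 11.9 CPM to 27.3, 25.2 and 27.4 CPM (1.23 ± 0.08). *Rspo4* also fell in DMSO, by 0.67 on the log2 scale (edgeR, BH-adjusted p 0.000685).

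In the BMP pathway *Grem1* (chromosome 2, 113746164 to 113758646), the antagonist that protects the ridge from BMP signals, had 59.1, 62.4 and 61.1 CPM at 1 h and 9.15, 8.03 and 9.7 CPM at 6 h in C59. Its log2 fold change was -2.76 ± 0.07 (edgeR, BH-adjusted p 5.49e-16), and the DMSO libraries stayed between 67.6 and 78.5 CPM. *Msx1* (chromosome 5, 37820485 to 37824583), a homeobox gene that responds to BMP, fell from 171, 182 and 188 CPM to 40.3, 36.5 and 38.2 CPM (-2.24 ± 0.05, BH-adjusted p 5e-17, edgeR). The mesenchymal factor *Twist1* went from 321, 342 and 326 CPM to 149, 153 and 154 CPM and *Twist2* from 10.2, 10.7 and 10.8 CPM to 4.93, 4.84 and 4.19 CPM. No library of 6 h reached the lowest library of 1 h in any of these 4 genes. Their steps in C59 and DMSO differed by -2.67 ± 0.10 for *Grem1*, -2.12 ± 0.07 for *Msx1*, -1.21 ± 0.06 for *Twist1* and -1.35 ± 0.18 for *Twist2*, and the ligand gene *Bmp4* fell by 0.73 in C59, below the fold threshold, while its change in DMSO was positive and did not pass the test (0.17 ± 0.06, edgeR, BH-adjusted p 0.12).

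Of 29 tested genes of the BMP list, 4 were called lower and 3 higher in C59 (all genes 1.35% and 2.41%). In DMSO 0 of 29 were called lower and 2 higher, and the median was 0.15 in C59 and 0.17 in DMSO. Of 29 steps 4 were called more negative and 1 more positive in C59. The 3 called higher in C59 were *Gdf5*, a BMP family ligand of forming joints (0.81, 0.846 and 0.916 CPM to 6.18, 4.8 and 4.76 CPM, 2.61 ± 0.23), and the antagonist genes *Nog* (0.724, 0.697 and 0.713 CPM to 3.22, 2.75 and 2.58 CPM, 1.99 ± 0.27) and *Bmper* (1.62 ± 0.23). For *Gdf5* the step in C59 exceeded that in DMSO by 1.72 ± 0.29 (edgeR, BH-adjusted p 0.00066), from a lower start, since DMSO libraries at 1 h had 1.9, 1.76 and 1.62 CPM. *Nog* rose in DMSO as well (1.42 ± 0.30), and the difference between its steps did not pass (BH-adjusted p 0.403, edgeR). 8 of the 29 listed genes are in the study's panels.

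The ridge ligand genes *Fgf4* and *Fgf8* fell. *Fgf4* (chromosome 7, 144847367 to 144865243) had 4.99, 4.63 and 4.79 CPM at 1 h and 0.125, 0.0475 and 0.218 CPM at 6 h, which is -5.12 ± 0.35 on the log2 scale (edgeR, BH-adjusted p 5.73e-10). It started in C59 above the DMSO libraries of 1 h, at 2.94, 3.33 and 2.24 CPM, and its DMSO libraries of 6 h held 1.17, 1.06 and 2.23 CPM. *Fgf8* (chromosome 19, 45736798 to 45742915), expressed along the whole ridge, fell from 37.2, 35.4 and 37.5 CPM to 10.53, 10.9 and 11.6 CPM (-1.74 ± 0.08, edgeR, BH-adjusted p 8.56e-13), with a change of -0.21 ± 0.08 in DMSO that did not pass. These 2 were the genes called lower among 13 tested ridge factors, and 1 was called higher (all genes 1.35% and 2.41%). The study's panels hold 2 of the 15 listed. The only one called higher, *Dlx6* (1.14 ± 0.38), was not called when replicate 1 or 3 of C59 1 h or replicate 2 of C59 6 h was left out. In bulk limb buds fewer cells of a type and less RNA per cell cannot be told apart. The 20 markers of surface ectoderm, the tissue that holds the ridge, had a summed level of 421 to 450.2 CPM at 1 h and 500.1 to 503 CPM at 6 h in C59 (DMSO 414 to 465 CPM and 482 to 523 CPM). Of the 20, 1 was called lower, *Tfap2c* (-1.27 ± 0.10), and 1 higher, *Tfap2b* (1.01 ± 0.07), beside 1.35% and 2.41% of all genes. The call of *Tfap2b* was lost without C59 1 h replicate 1 or C59 6 h replicate 1.

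FGF receptors, feedback and target genes gave 3 calls higher and 1 lower among 20 (all genes 2.41% and 1.35%). Of the 20 genes 6 are in the study's panels. The phosphatase gene *Dusp5*, induced by ERK signaling, went from 7.67, 7.56 and 8.4 CPM to 2.84, 2.61 and 2.71 CPM (-1.53 ± 0.16). *Fgfr4*, a receptor of muscle precursors, rose from 1.58, 2.79 and 2.95 CPM to 11.7, 10.6 and 9.48 CPM (2.13 ± 0.18), and *Fgf18* (1.55 ± 0.16) and *Fgfr3* (1.20 ± 0.12) rose as well. In DMSO *Fgf18* rose by nearly the same amount (1.49 ± 0.17), and the mesenchymal ligand gene *Fgf10* changed by 0.59 ± 0.07 in C59 and 0.04 ± 0.07 in DMSO. The step of *Fgfr4* exceeded that in DMSO by 0.94, under the fold threshold. In DMSO 2 of 20 genes of the list were called higher and 0 lower, and 0 of 20 steps were called more positive in C59. In the hedgehog pathway *Shh* (chromosome 5, 28456815 to 28467256) fell from 10.4, 10.4 and 11.7 CPM to 5.01, 5.56 and 4.98 CPM (-1.07 ± 0.13, edgeR, BH-adjusted p 1.01e-06), while DMSO libraries stayed between 12.2 and 14.99 CPM. *Hhip*, a target that binds hedgehog ligands, rose from 4.01, 4.48 and 4.53 CPM to 9.27, 9.78 and 10.8 CPM (1.20 ± 0.14), *Ptch1* by 0.56 ± 0.04 and *Gli1* by 0.34 ± 0.06, the last 2 below the fold threshold. The steps of *Ptch1* and *Gli1* exceeded those in DMSO by 0.35 ± 0.08 and 0.35 ± 0.10 (edgeR, BH-adjusted p 0.0101 and 0.0313). *Shh* and *Hhip* were the 2 calls among 14 tested hedgehog genes, of which 6 were higher and 3 lower at any fold (all genes 23.7% and 24.5%), and *Gli3* changed by -0.35 ± 0.04.

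Most genes of cartilage formation rose, 18 of 23 at any fold in C59 and 12 of 23 in DMSO (all genes 23.7% in C59 and 3.78% in DMSO). *Sox9* (chromosome 11, 112782224 to 112787760), the transcription factor that commits cells to cartilage, went from 123, 129 and 124 CPM at 1 h to 367, 327 and 356 CPM at 6 h in C59 (1.48 ± 0.04, edgeR, BH-adjusted p 7.14e-16). In DMSO it rose from 121, 156 and 155 CPM to 218, 220.1 and 201 CPM (0.56 ± 0.08), and the steps differed by 0.92 ± 0.10 (edgeR, BH-adjusted p 1.27e-05), close to but under the fold threshold. Of 23 tested genes of the chondrogenesis list 8 were called higher and 0 lower in C59 (all genes 2.41% and 1.35%), with a median of 0.64. In DMSO 5 were called higher (all genes 0.58%), with a median of 0.39. A difference between the steps was called for 0 of 23 genes, and 4 steps were more positive in C59 at any fold (5.31% of all genes, edgeR). 8 of the 26 listed genes belong to the study's panels.

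Matrix genes of cartilage rose in both treatments. *Matn4*, a matrilin of the cartilage matrix, went from 0.426, 0.896 and 0.815 CPM to 5.97, 7.12 and 3.5 CPM in C59 and from 0.692, 0.333 and 0.62 CPM to 4.64, 7.35 and 5.09 CPM in DMSO. The groups of 6 h and 1 h were apart in both treatments, with overlapping ranges between treatments at each time, and the steps did not differ by the test (-0.36 ± 0.51, edgeR, BH-adjusted p 0.708). *Col9a2*, a chain of the fibril-associated collagen of cartilage, rose by 1.91 ± 0.17 in C59 and 1.54 ± 0.14 in DMSO, *Col9a3* by 1.47 ± 0.18 and 1.00 ± 0.13, and *Cnmd*, the chondromodulin gene, by 2.25 ± 0.36 and 2.38 ± 0.34. *Col8a1* rose by 2.90 ± 0.35 and the forkhead factor *Foxc1* by 1.46 ± 0.07, whereas the main cartilage collagen *Col2a1* stayed under the fold threshold (0.87 ± 0.06). The eighth call, *Runx3* (1.25 ± 0.50), was at 0.95 CPM or less in C59 and was lost without C59 1 h replicate 1 or 2 or C59 6 h replicate 1 or 2. *Barx1* had the lowest value of the list (-1.25 ± 0.54, BH-adjusted p 0.0624, edgeR), with C59 1 h replicate 1 at 5.41 CPM and the other 5 C59 libraries between 0.547 and 1.14 CPM.

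**Figure D3:**
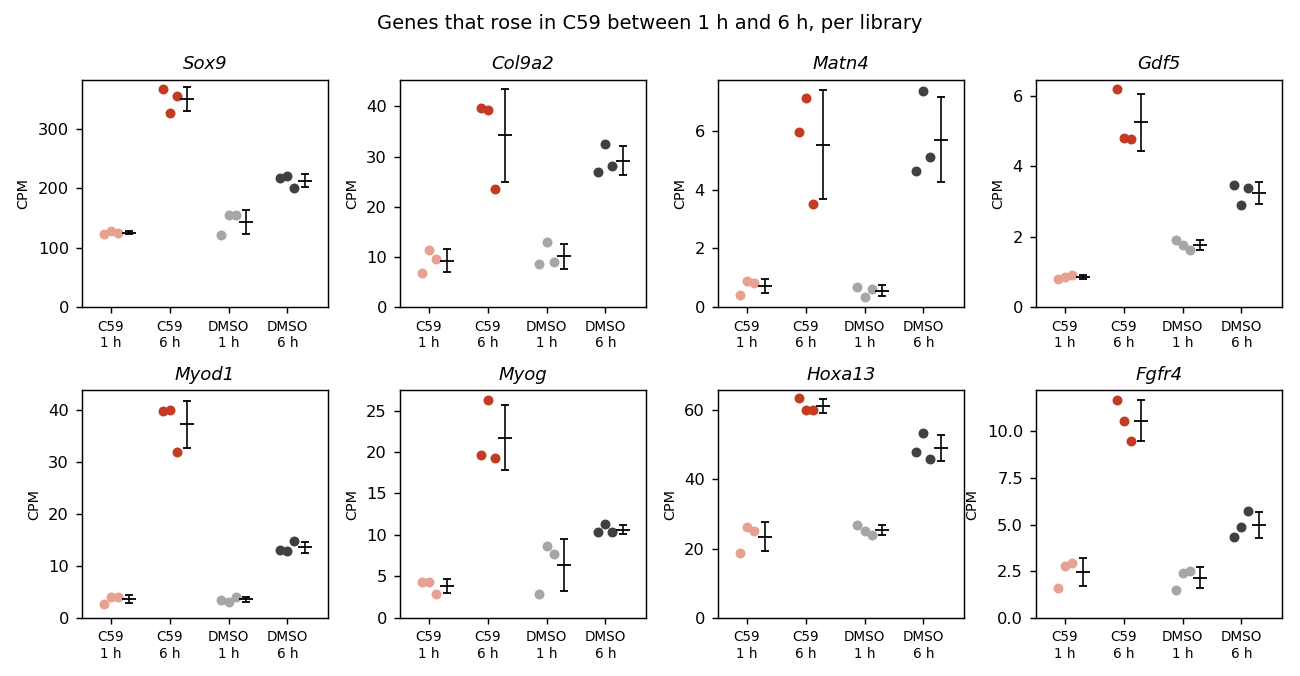
CPM of each library in the 4 groups for 8 genes that rose in C59, with means and error bars of 1 SD (n = 3) in black. *Myod1* reached 32 to 40 CPM at C59 6 h against 12.8 to 14.8 CPM at DMSO 6 h, while for *Matn4* and *Col9a2* the libraries of 6 h overlap between treatments.

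The muscle regulators *Myod1* and *Myog* rose more in C59 than in DMSO. *Myod1* (chromosome 7, 46376474 to 46379099), the factor that commits cells to muscle, had 2.64, 3.93 and 4.07 CPM at 1 h and 39.8, 40 and 32 CPM at 6 h (3.40 ± 0.13, edgeR, BH-adjusted p 1.08e-13). The DMSO libraries went from 3.5, 3.09 and 4.03 CPM to 13.1, 12.8 and 14.8 CPM, and the steps differed by 1.49 ± 0.21 (edgeR, BH-adjusted p 0.000134). *Myog*, which acts at differentiation, rose from 4.3, 4.28 and 2.85 CPM to 19.7, 26.3 and 19.3 CPM (2.50 ± 0.15), and its step exceeded that in DMSO by 1.77 ± 0.36 (edgeR, BH-adjusted p 0.00317). *Pax3*, which marks the migrating precursors, fell from 28.5, 28.5 and 26.8 CPM to 10.6, 12.6 and 14.3 CPM (-1.163 ± 0.09). In all 6 of 20 tested genes of the muscle lineage were called higher and 1 lower (all genes 2.41% and 1.35%), with a median of 0.74 in C59 and 0.21 in DMSO. In DMSO 3 of 20 were called higher (all genes 0.58%) and 0 lower, and *Pax3* changed by -0.42. A more positive step in C59 was called for 2 of 21 genes, *Myod1* and *Myog*, and a more negative one for 0.

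The other muscle genes called higher in C59 were the fusion gene *Mymk* (3.04 ± 0.50), the precursor gene *Pax7* (2.04 ± 0.32), the regulator *Myf5* (1.18 ± 0.13) and the troponin gene *Tnnt1* (1.40 ± 0.21). The count of 6 became 10 without C59 6 h replicate 1. Summed over the 22 listed genes the level went from 286 to 303 CPM at 1 h to 359.9 to 403 CPM at 6 h in C59. In DMSO the sum was 292 to 357 CPM at 1 h and 330 to 366 CPM at 6 h, with overlap.

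Among *HoxA* and *HoxD* genes, which pattern the limb from proximal to distal, 2 distal genes were called higher and 2 proximal ones lower. *Hoxa13*, active in the future hand, went from 18.7, 26.4 and 25.2 CPM to 63.5, 60 and 60.1 CPM (1.39 ± 0.09) and *Evx2*, beside the *HoxD* cluster, from 2.6, 3.58 and 3.56 CPM to 12.9, 14 and 13.8 CPM (2.07 ± 0.14), both without overlap. *Hoxd13* stayed just under the fold threshold (0.97 ± 0.05), and these genes rose in DMSO too (0.96 ± 0.07, 1.85 ± 0.18 and 0.80 ± 0.06 in that order). *Hoxd3* (-1.10 ± 0.16) and *Hoxa4* (-1.01 ± 0.16) fell. The call of *Hoxd3* was lost without C59 6 h replicate 2, and that of *Hoxa4* without C59 1 h replicate 1, C59 1 h replicate 2 or C59 6 h replicate 1. Of 20 genes 2 were called in each direction (all genes 2.41% higher and 1.35% lower). At any fold 7 were higher and 10 lower (all genes 23.7% and 24.5%). A difference between the steps in C59 and DMSO was called for 0 of 20, with *Hoxa4* at the lower end (-0.86).

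Other patterning factors gave 3 calls lower and 1 higher among 36 (all genes 1.35% and 2.41%). *Lin28a*, an RNA-binding protein of early, immature cells, fell from 21.3, 22.1 and 22.5 CPM to 5.47, 6.36 and 6.38 CPM in C59 (-1.86 ± 0.10) and from 18.6, 19.5 and 19.7 CPM to 12.6, 11.2 and 9.21 CPM in DMSO, with a difference between the steps of -1.06 ± 0.15 (edgeR, BH-adjusted p 9.96e-05) that fell under the fold threshold when replicate 1 of either group at 6 h was left out. The homeobox genes *Alx1* (-1.25 ± 0.15) and *Irx3* (-1.04 ± 0.06) fell and *Pax9* rose (1.999 ± 0.25), and the call of *Irx3* was lost without C59 6 h replicate 1. In DMSO *Pax9* changed by 0.99, and the difference between its steps (1.01) was not called. In the retinoic acid list, the binding protein gene *Crabp1* fell from 232, 236 and 224 CPM to 98.8, 107 and 123 CPM (-1.08 ± 0.05), the only call among 14. In DMSO *Crabp1* changed by -0.54, and a difference between the steps was called for 0 of 14 genes of this list. All 16 markers of limb mesenchyme had counts, with a summed level of 2939 to 3094 CPM at 1 h and 2506 to 2663 CPM at 6 h in C59. They had a median of -0.34 in C59 and 0.01 in DMSO. Of these 16, 3 were called lower (*Msx1*, *Twist1* and *Twist2*). At any fold 12 were lower and 4 higher (all genes 24.5% and 23.7%), with *Pdgfra* highest (0.87 ± 0.03).

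Most genes of ribosome biogenesis, cholesterol synthesis and S phase fell by small amounts. Of 29 tested ribosome biogenesis genes, 28 were lower at any fold and 0 higher in C59 (all genes 24.5% lower), none of them beyond the fold threshold, with a median of -0.45. Their summed level was 7016 to 7164 CPM at 1 h and 5082 to 5099.9 CPM at 6 h. *Nhp2*, a small nucleolar ribonucleoprotein subunit, went from 112, 122 and 114 CPM to 64.1, 64.5 and 61.3 CPM (-0.88 ± 0.05, the lowest), and *Noc3l* was the exception (-0.10 ± 0.06, edgeR, BH-adjusted p 0.177). In DMSO 3 of the 29 were lower (all genes 1.88%) and the median was -0.11, and the step was more negative in C59 at any fold for 23 of 29, against 7.65% of all genes. The helicase gene *Ddx21* fell from 289, 292 and 289 CPM to 157, 161 and 163 CPM (-0.86 ± 0.03) and the nucleolin gene *Ncl* by 0.53 on the log2 scale, both below the fold threshold.

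Genes of cholesterol synthesis were lower at any fold in 20 of 22 cases and higher in 0 (all genes 24.5% and 23.7%), with a median of -0.38 in C59 and -0.09 in DMSO. *Insig1*, which holds back the sterol regulators, went from 120.0, 123 and 128 CPM to 48.8, 50.7 and 47.2 CPM (-1.34 ± 0.05), 1 of the 2 calls of the list. It started in C59 at 1 h above all DMSO libraries of 1 h, which ranged from 80.9 to 90.9 CPM. Of 30 S phase genes 26 were lower at any fold and 0 higher, with a median of -0.25 (DMSO -0.12), and of 30 genes of G2 and M phase 9 were lower and 9 higher, near the shares of all genes. In both cell cycle lists 0 genes passed the fold threshold.

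**Figure D4:**
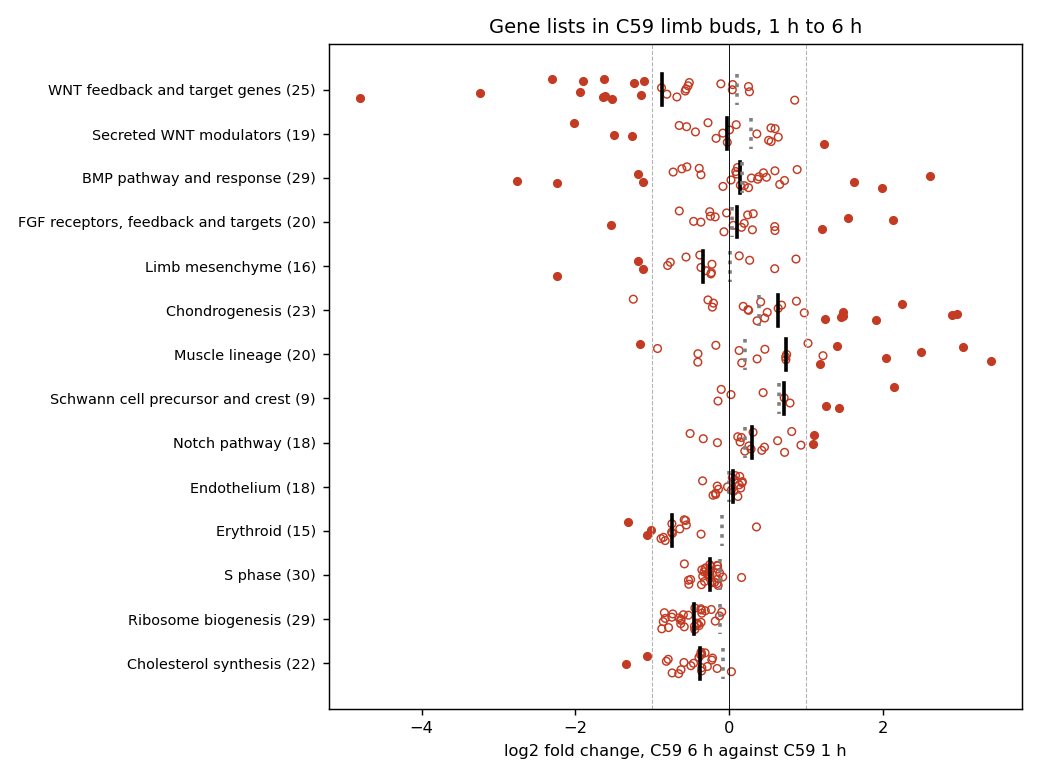
Each circle is a tested gene of a list (number of tested genes in brackets), placed by its log2 fold change from 1 h to 6 h in C59, and filled when called; the black bar is the list's median in C59, the dotted grey bar its median in DMSO, and dashed lines mark the fold threshold. The WNT feedback list has its median at -0.88 with 12 filled circles, the ribosome biogenesis list lies to the left of 0 without any, and the endothelium list surrounds 0.

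Markers of other cell types were read beside these results. The 16 listed erythroid genes had a summed level of 6127 to 8616 CPM at 1 h and 3382 to 4432 CPM at 6 h in C59, without overlap, and 4645 to 6209 CPM and 4428 to 4859 CPM in DMSO. Of 15 tested, 14 were lower at any fold in C59 (all genes 24.5%), and in DMSO 1 of 15 was lower and 2 were higher. The step was more negative in C59 at any fold for 7 of 15, against 7.65% of all genes. In C59 3 were called lower (all genes 1.35%), the globin genes *Hbb-bh1* (-1.31 ± 0.10), *Hbb-bs* (-1.06 ± 0.14) and *Hba-x* (-1.02 ± 0.09). The count was 1 without C59 1 h replicate 1, C59 1 h replicate 3 or C59 6 h replicate 1 and 5 without C59 1 h replicate 2. The step of *Hbb-bs* differed from that in DMSO by -1.65 ± 0.25, and the adult gene *Hbb-bt* did not pass in C59 (0.35 ± 0.15). In DMSO *Hbb-bt* was called higher (1.17 ± 0.12) and *Hbb-bs* rose by less than the fold threshold (0.59 ± 0.16). The near-identical adult β-globin copies may share reads. Whether blood in the samples has a part in any other change was not tested.

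Of 13 tested somite and trunk genes 6 were called lower and 0 higher (all genes 1.35% and 2.41%). At any fold the same 6 were lower and 4 higher, with *Tbx1* at the upper end (0.87) and a list median of -0.02. A difference between the steps in C59 and DMSO was called for 1 of 13. *Gata4*, of lateral plate and heart, went from 8.69, 8.81 and 4.02 CPM to 1.29, 2.61 and 2.45 CPM and *Wt1*, of the coelomic lining, from 13.2, 13.5 and 9.01 CPM to 0.835, 5.65 and 4.19 CPM (-1.78 ± 0.27 and -1.77 ± 0.31). At DMSO 1 h these stood at 3.59, 0.619 and 1.58 CPM and 7.91, 3 and 7.3 CPM, so the C59 libraries of 1 h were the high ones. *Gata5* (-1.67 ± 0.31), *Gata6* (-1.20 ± 0.15), *Upk3b* (-1.68 ± 0.55) and *Uncx* (-1.46 ± 0.53) were the other calls. *Upk3b* overlapped between groups and was not called when replicate 1 of C59 1 h or replicate 1 or 3 of C59 6 h was left out. *Uncx* kept its call only without C59 6 h replicate 3 among the 6 fits that left out a library, and with the Y-linked level as a covariate the count of 6 became 3. The summed level of the list was 123 to 153 CPM at 1 h and 137 to 159.5 CPM at 6 h in C59, and the cardiac gene *Nkx2-5* was at 0 in all 4 groups. The part of body wall tissue in these values was not tested.

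Of 18 tested endothelial markers 0 were called by edgeR, and at any fold 2 were higher and 4 lower (all genes 23.7% and 24.5%). The summed level was 672 to 700.4 CPM at 1 h and 676 to 696 CPM at 6 h in C59, and the median was 0.05. Of 9 tested genes of Schwann cell precursors and crest 3 were called higher and 0 lower (all genes 2.41% and 1.35%). The 3 were the receptor gene *Erbb3* (1.26 ± 0.10), the crest factor *Sox10* (1.43 ± 0.20) and the cadherin gene *Cdh19* (2.15 ± 0.40). The list's median was 0.72 in C59 and 0.64 in DMSO, where 1 of 7 tested was called higher. The summed level in C59 was 63.9 to 67.3 CPM at 1 h and 83.5 to 107 CPM at 6 h. In DMSO it was 65.4 to 71.3 CPM at 1 h and 86.9 to 92.5 CPM at 6 h. Neural tube genes were near the limit of detection, with 9 of 20 tested and *Lhx5*, *Neurod1* and *Neurog2* at 0 in both C59 groups. Of the 9 tested, 0 were called lower and 2 higher (all genes 1.35% and 2.41%). The 2 called higher were the homeobox genes *Lhx1*, with 0, 0.249 and 0.255 CPM at 1 h and 2.17, 2.09 and 2.05 CPM at 6 h, and *Dmbx1*, with 0.17, 0 and 0.0509 CPM and 2.8, 2.33 and 2.23 CPM (3.68 ± 0.48 and 4.86 ± 0.50).

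The remaining genes with the largest changes in C59 were mostly low. Among decreases, the adhesion gene *Jaml* went from 3.11, 2.89 and 2.44 CPM to 0.167, 0.142 and 0.0437 CPM (-4.52 ± 0.41), and *Cldn10*, *Hoxb1* and *Trpm1* fell by 2.59 to 3.14 on the log2 scale from means of 1.54 CPM or less. Among increases *Padi4*, which converts arginine to citrulline in proteins, went from 0.0426, 0.0995 and 0.153 CPM to 1.96, 2.75 and 4.24 CPM (4.89 ± 0.49), with DMSO libraries of 1 h already at 0.908, 1.24 and 1.62 CPM. *Ptpro* (3.32 ± 0.52), the activin subunit gene *Inhba* (3.31 ± 0.45) and the neuropeptide gene *Adcyap1* (2.99 ± 0.54) reached 2.01 CPM or less. Of the 316 genes called higher, 194 had a mean below 5 CPM at both times, as had 107 of the 177 called lower.

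*Nr1h5*, a nuclear receptor gene, had 31.3, 20.5 and 24.4 CPM at C59 1 h and no count in the 3 libraries at C59 6 h, at least 574-fold lower when 3 counts over the group are taken as the floor. In DMSO the order was the opposite, with no count at 1 h and 17.4, 15.5 and 18.8 CPM at 6 h, at least 419-fold higher by the same floor. Over the 30 libraries it had counts in 10 and none in 20. Genes with near-identical copies in the genome showed steps of this kind too and are uncertain: *Hmga1b* (4.77, 4.03 and 3.92 CPM to 32.6, 51.1 and 76 CPM in C59), *Tpm3-rs7*, *Rpl26* and *Srp54a*. Apart from them and *Nr1h5*, the steps that differed most between C59 and DMSO were more negative in C59 for *Sp5*, *Fgf4*, *Jaml* and *Notum*, and more positive for *Padi4* (3.39 ± 0.82), the clock family gene *Arntl2* (2.50 ± 0.63), *Slc37a2* (2.37 ± 0.51), *1110002E22Rik* (2.205 ± 0.46), *Cdh19* (2.15 ± 0.68), *Arpp21* (2.06 ± 0.55) and *Anxa8* (2.005 ± 0.49). Calls among these were lost for *Arpp21* without DMSO 1 h replicate 3, and for *Cdh19* without C59 1 h replicate 2 or 3, C59 6 h replicate 1 or 2, DMSO 1 h replicate 1 or any of the 3 DMSO 6 h libraries. That of *Anxa8* was lost without DMSO replicate 1 at both times, and that of *Padi4* with all 30 libraries in the fit.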

How the data were processed

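PolyA RNA of forelimb buds was sequenced, and the authors deposited a table of counts per gene, written during mapping with STAR version 2.7.0e (mm10, custom annotation) after trimming with cutadapt version 1.16, and a table of FPKM values from Cufflinks version 2.2.1. The strand setting of the counting is not given in the sources used here. Groups were taken from the labels, and no label ties a library to a litter, so p-values measure the spread between these samples only.

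Counts of protein-coding autosomal genes were filtered (filterByExpr), scaled by TMM and tested with edgeR version 4.0.16 (R version 4.3.3), in 6 libraries for the step in C59 or DMSO and in 12 for the difference between the steps. The test was checked on simulated data. limma version 3.58.1 and DESeq2 version 1.42.0 served as alternatives. Of 50833 genes, 205 without a match in the annotation (0.00676% of counts) were left out. FPKM was used with limma and for sex-linked genes.

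The members and gene lists were chosen with earlier results of these data known. Named genes were *Axin2*, the 10 largest changes of each sign in C59 among called genes without overlap and with at least 1 CPM in the higher group, the 8 largest of each sign in the interaction, genes at 0 in all libraries of 1 group, and for each list the called genes and its extremes. *Nkd1*, *Lef1*, *Myc*, *Wnt5a*, *Bmp4*, *Fgf10*, *Ptch1*, *Gli1*, *Gli3*, *Col2a1*, *Hoxd13*, *Ddx21* and *Ncl* were chosen after their values were seen. A bound on a fold took 3 counts over the group of 3 libraries as the floor and covers counting error only. Some genes which this rule selects are not reported here.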

Additional observations from a re-analysis of the deposited data

Results flagged for a closer look

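The step from 1 h to 6 h differed between C59 and DMSO by the interaction test for 68 genes with a more positive and 111 genes with a more negative step in C59. With glmTreat the counts were 1 and 19, and on log2(FPKM + 1) they were 9 and 29. The genes given below are a selection, and not every gene named above with a called difference is among them. In this selection the difference in log2 fold change was more negative in C59 for the WNT feedback and target genes *Axin2* (-1.77), *Sp5* (-4.71), *Notum* (-3.37), *Apcdd1* (-2.23), *Fzd10* (-1.79), *Nkd2* (-1.90), *Mycn* (-1.43), *Lgr6* (-1.62) and *Nkd1* (-1.03, a call lost without C59 6 h replicate 2). The ligand gene *Wnt2* (-2.40) and the modulators *Sost* (-1.56) and *Dkk2* (-1.54) differed in the same direction. So did the signaling genes *Grem1* (-2.67), *Msx1* (-2.12), *Twist1* (-1.21), *Fgf4* (-4.18), *Fgf8* (-1.53) and *Shh* (-1.15). Further genes with a more negative step were *Lin28a* (-1.06), *Slc7a11* (-1.50), *Hbb-bs* (-1.65), *Jaml* (-3.79), and the uncertain copies *Tpm3-rs7* (-6.97) and *Rpl26* (-4.43).

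A more positive step in C59 was measured for *Gdf5* (1.72), *Myod1* (1.49), *Myog* (1.77), *Cdh19* (2.15), *Padi4* (3.39), *Arntl2* (2.50), *Slc37a2* (2.37), *1110002E22Rik* (2.2), *Arpp21* (2.06) and *Anxa8* (2.0), and for the uncertain copy *Srp54a* (3.88).

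Sex-linked genes, which are outside the tests, gave a signal in the C59 libraries. The summed Y-linked level was 37.0, 38.2 and 21.2 FPKM at 1 h and 20.3, 19.8 and 33.2 FPKM at 6 h in C59, above the highest of the 6 DMSO libraries at 9.03 FPKM.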

How the results depend on the processing

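Each test was repeated under other settings. For C59 the count of 493 called genes was 477 in DESeq2, 496 with DESeq2's size factors, 579 without a filter on low counts, 340 with a mean of at least 1 CPM, 637 with all autosomal genes, 546 with all 30 libraries in the fit, 366 in limma on log2(FPKM + 0.1), and between 489 and 529 when 1 library was left out. It was 85 in limma on log2(FPKM + 1), 94 when edgeR's glmTreat tested for a fold beyond the threshold, and 6312 without a minimum fold. For DMSO the count of 92 became 140 with all autosomal genes, 10 on log2(FPKM + 1), 36 on log2(FPKM + 0.1), 9 with glmTreat and 743 without a minimum fold. It was 47 without DMSO replicate 1 at both times, a setting added after the data were seen, as was the Y-linked covariate, and 56 to 78 without any 1 library. For the difference between the steps 179 (68 more positive and 111 more negative in C59) became 38 on log2(FPKM + 1) (9 and 29), 20 with glmTreat (1 and 19) and 1736 without a minimum fold, 153 without DMSO replicate 1 at both times, and 145 to 174 without any 1 library. A pseudocount of 1 shrinks low genes by construction, and for the other settings the cause was not tested.

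Of 129 named values of C59, glmTreat ended 58 calls and log2(FPKM + 1) ended 66, and each other setting ended at most 16. The lower calls of the WNT feedback list went from 12 to 7 with glmTreat, the higher calls of chondrogenesis from 8 to 5 and of muscle from 6 to 3 on log2(FPKM + 1), and the lower calls of somite and trunk genes from 6 to 1. The value of *Barx1*, which did not pass the test, lay between -1.70 and 0.33 when 1 library was left out, and its direction turned without C59 1 h replicate 1. It passed without C59 1 h replicate 2 or 3.

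Replicate numbers were not taken as pairs, since not every same-numbered pair correlated above 0.1. Deviations of same-numbered libraries correlated at -0.07 to -0.02 in C59 and -0.001 to 0.18 in DMSO, with the highest value for replicate 1. With a replicate block 474 genes were called in C59, 83 in DMSO and 167 for the difference between the steps. The block ended the calls of *Runx3* and *Arc* in C59 and no call among the other named genes. Genes below 5 CPM make up 194 of 316 higher and 107 of 177 lower calls in C59, and their folds are the least precise at this depth.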

Other observations

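Further lists of genes were read in the C59 limb buds between 1 h and 6 h, beside shares over all genes of 23.7% higher and 24.5% lower at any fold, and of 2.41% higher and 1.35% lower among calls. Of 18 tested genes of the Notch pathway 11 were higher at any fold and 0 lower, with a median of 0.30 in C59 and 0.20 in DMSO. *Jag1*, a Notch ligand, went from 35.7, 35 and 32.1 CPM to 74.3, 74.8 and 71.4 CPM, and *Lfng*, a glycosyltransferase that modifies Notch, from 6.05, 7.41 and 7.54 CPM to 15.1, 15.01 and 14.98 CPM, without overlap (1.10 ± 0.05 and 1.10 ± 0.11). Among 19 genes of cell cycle control 12 were higher and 2 lower at any fold, and the stress and growth arrest genes *Gadd45b* (1.41 ± 0.15) and *Gadd45g* (1.20 ± 0.16) were the 2 called higher. Of 13 macrophage genes 6 were higher and 1 lower at any fold, the summed level was 36.5 to 44.7 CPM at 1 h and 48.2 to 63.1 CPM at 6 h (DMSO 35.3 to 40.9 CPM and 47.2 to 49.6 CPM), and *Ptprc*, the pan-leukocyte gene, was called (1.01 ± 0.31), but not without C59 1 h replicate 2 or C59 6 h replicate 1.

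Of 30 genes of hypoxia and glycolysis 12 were lower and 6 higher at any fold, with the hexokinase gene *Hk2* called lower (-1.02 ± 0.05) and *Ddit4*, an inhibitor of mTOR signaling, called higher (1.17 ± 0.04). In the amino acid response list 14 of 24 genes were lower at any fold, and the cystine transporter gene *Slc7a11* fell from 13, 17.6 and 16.6 CPM to 8.9, 6.41 and 7.34 CPM (-1.05 ± 0.13), a call that was lost without C59 1 h replicate 2 or C59 6 h replicate 2. Glucocorticoid response genes gave 1 call in each direction among 11, *Klf9* higher (1.159 ± 0.15) and the metallothionein gene *Mt1* lower (-1.45 ± 0.12). Of 15 heat shock genes 7 were lower and 3 higher at any fold, and *Hspa1b* was called higher (1.35 ± 0.28). Of 17 clock genes 8 were lower and 0 higher at any fold (edgeR), with 0 beyond the fold threshold. Of 22 immediate early genes 11 were higher and 2 lower at any fold. The 2 called, *Nr4a3* (1.11 ± 0.33) and *Arc* (1.01 ± 0.38), lost their calls without C59 1 h replicate 1 or C59 6 h replicate 2, and that of *Arc* also without C59 1 h replicate 2 or C59 6 h replicate 3. *Egr1* fell by less than the fold threshold (-0.80 ± 0.15).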
